A study of Mus musculus with 17 samples.

Results

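The Hox cluster genes were described in 17 primary tumors of TH-MYCN mice, with 1 array for each tumor. The genes were chosen by name. A member was any gene whose platform symbol is Hoxa, Hoxb, Hoxc or Hoxd followed by a paralog number, and the noncoding RNA Hoxd3os1 was added. These were 34 of the 18193 genes that had a probe set with a single gene symbol. Each gene was given the value of its probe set with the highest mean. All tumors carry the same genotype in the labels, TH-MYCN. In this model a human MYCN transgene is driven by the rat tyrosine hydroxylase promoter, which is active in cells of the neural crest. Per the study's methods the mice were hemizygous for the transgene and kept on a single inbred background, and the tumors were abdominal. The labels give neither age nor sex nor treatment for a single tumor, and arrays of normal ganglia or wild type mice were not analysed here. They are called here by the names in the labels, mad548 to mad565. Since all of them form 1 group, the members were compared between tumors and with continuous measures only.

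Hox genes encode homeodomain transcription factors that give cells of the body axis their position from head to tail. They lie in clusters on different chromosomes, and within a cluster their order follows the order of their expression along the axis. Genes of low paralog number start at the hindbrain and neck, those in the middle of a cluster mark the trunk, and those of high number mark the lumbar, sacral and tail levels and the ends of the limbs. Genes of the same number in different clusters are paralogs. Neural crest cells carry a Hox code of the level they left, and sympathetic neurons, the lineage of neuroblastoma, come from the trunk crest.

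The tissue label was checked first. All 12 measured genes of the sympathoadrenal list, among them Th, Dbh, Phox2a, Hand2 and Gata3, averaged at least the array median, and the mean of the list lay between 11.36 and 12.05 on the log2 scale in the 17 tumors. None of the 8 measured kidney genes and none of the 8 adrenal cortex genes did. The arrays resembled each other, with Pearson's r between 0.969 and 0.994 for pairs of arrays (median 0.988). Fast skeletal muscle genes stood far above the other tumors in 3 of them. These were mad549, with a list mean of 10.42, mad550 with 11.02 and mad553 with 12.80, and the remaining 14 tumors had 5.81 to 6.79. A liver list was high in mad562, at 9.99, and had 7.39 in mad559, against 5.19 to 5.60 in the remaining tumors. The signal at the 3′ end of control transcripts exceeded that at the 5′ end by 1.89 to 2.37 on the log2 scale. Since these are bulk samples, fewer cells of a type and less RNA per cell cannot be told apart. The labels name the samples as separate tumors, and p-values measure the spread between them.

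Levels were described first against the middle of each array. The median of the single-symbol probe sets of an array, 6.69 to 6.89, was used as a common yardstick, and 10 of 34 members reached it on average, where 57.6% of all genes did. By paralog number these were 1 of 8 members numbered 1 to 3 (Hoxd3os1), 9 of 16 numbered 4 to 9, close to the share of all genes, and 0 of 10 numbered 10 to 13. With the mean of all probe sets of a gene in place of the highest, 7 of the 34 reached it. The share of all genes was not counted for this measure, so this 7 cannot be set against the 57.6%. The highest value of any member numbered 10 to 13 in any tumor was 6.15. By cluster, 5 of 7 Hoxc members, 3 of 9 Hoxd members, 2 of 9 Hoxa members and 0 of 9 Hoxb members reached it. In 9 of 34 members every tumor lay below the 25th percentile of its array, where 14% of all genes did. A probe set that hybridizes poorly also lies low, so these ranks describe the arrays and do not order one gene against another. Between 7 and 11 members lay at or above the array median in a given tumor.

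**Figure D1:**
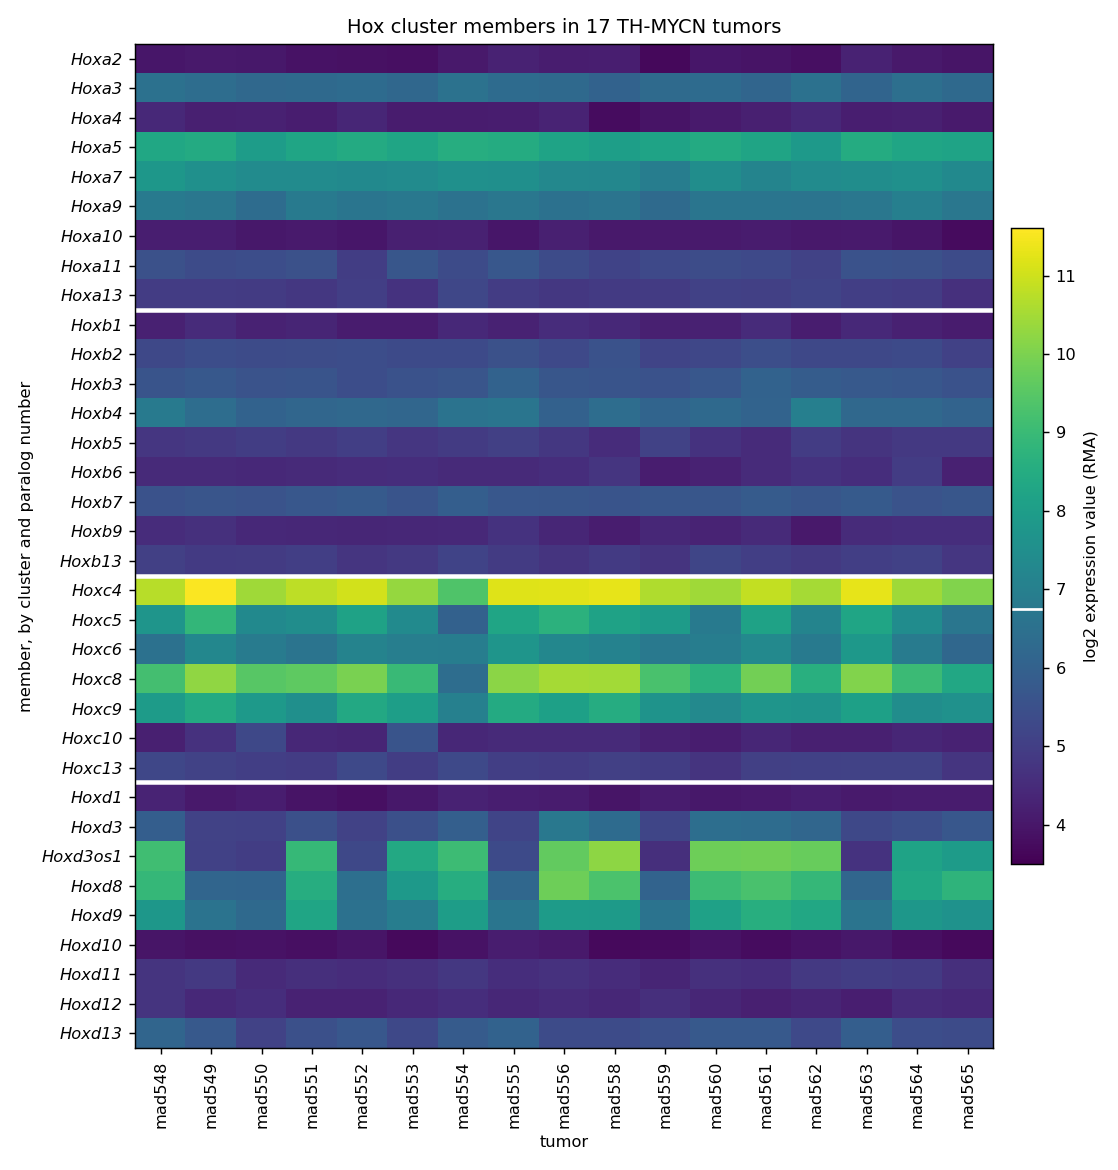
Log2 expression values (colour) of the 34 members (rows, by cluster and paralog number) in the 17 tumors (columns), with the mean array median, 6.75, as a white line on the colour scale. The bright rows lie at Hoxa5 and Hoxa7, at Hoxc4 to Hoxc9 and at Hoxd3os1 to Hoxd9, and the last of these blocks is dark in 6 tumors.

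The measured Hoxa members differed little between tumors, with an SD of 0.12 to 0.19. Hoxa5, which patterns the neck, the chest and the airways, had a lowest value of 7.88, a median of 8.26 and a highest of 8.54. Hoxa7, a gene of the thoracic vertebrae, had 6.92, 7.42 and 7.78. Both were at or above the array median in 17 of 17 tumors. Hoxa9, the next measured number, averaged 6.66 ± 0.17 (SD, n = 17) and reached the array median in 4 tumors. Hoxa3 averaged 6.32, Hoxa11 5.38 and Hoxa13 4.93, and Hoxa2, Hoxa4 and Hoxa10 lay below the 25th percentile of every array. Probe sets of the same gene did not always follow each other. A second probe set of Hoxa5 had a mean of 5.65 and a correlation of -0.20 with the first over the 17 tumors, so the place of Hoxa5 above the array median rested on 1 of its 2 probe sets. A second probe set of Hoxa9 ran between 4.92 and 7.28, with an SD of 0.71, and its correlation with the first was -0.04.

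No Hoxb member averaged as much as the array median. Hoxb4 came nearest, with a lowest value of 6.03, a median of 6.23 and a highest of 6.98, and it reached the array median only in mad562. The means of the other Hoxb members lay between 4.30 (Hoxb1) and 5.69 (Hoxb7), and the SDs of all 9 lay between 0.10 and 0.28. Hoxb1, a gene of the hindbrain, and Hoxb9, a gene of the thoracic level, were below the 25th percentile of every array. Hoxb8 was measured only on a probe set shared with Hoxb7, which averaged 4.87. Hoxa6, Hoxc11 and Hoxc12 had no probe set of their own and were not analysed here.

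The Hoxc cluster held a run of members above the array median, from Hoxc4 to Hoxc9. Hoxc4, which acts at the cervical and upper thoracic level, had a lowest value of 9.37, a median of 10.73 and a highest of 11.55. Hoxc5, its neighbor, had 6.02, 7.72 and 8.87. Its place above the array median rested on 1 of its 3 probe sets. The others averaged 4.81 (SD 0.16) and 5.86 (SD 0.21), and their correlations with the one used were 0.579 and 0.527. Hoxc6, which marks the brachial level of the spinal cord, had 6.21, 6.93 and 7.83. Hoxc8, a gene of the lower brachial and thoracic levels, had 6.4, 9.51 and 10.51. Hoxc9, which sets thoracic identity in motor neurons, had 7.04, 7.86 and 8.52. Hoxc4 and Hoxc9 were at or above the array median in all 17 tumors, Hoxc8 in 16, Hoxc5 in 15 and Hoxc6 in 14. The next measured number, Hoxc10, a gene of the lumbar level, lay between 4.14 and 5.62 and below the array median in every tumor. Hoxc13, which acts in hair and nail, averaged 5.03 ± 0.16 (SD, n = 17).

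Of the 7 Hoxc members, all but Hoxc13 (SD 0.16) had an SD above the median SD of all genes, 0.19. Over all clusters, the SD between tumors reached 0.5 (log2) in 7 of 34 members, where 6.79% of all genes did, and in 6 of the 10 members that reached the array median, where 7.18% of such genes did. These were Hoxc4 (SD 0.54), Hoxc5 (0.75), Hoxc8 (1.01), Hoxd3 (0.55), Hoxd3os1 (2.15), Hoxd8 (1.37) and Hoxd9 (0.78). The median SD of the 34 members was 0.17. A single tumor, mad554, stood below the others in the Hoxc cluster. It had 6.4 for Hoxc8, and the next lowest tumor had 8.35. For Hoxc4 it had 9.37 against 10.07 in the next tumor, and for Hoxc5 6.02 against 6.68. Its Hoxc9 value of 7.04 was also the lowest, while its Hoxc6 value, 6.93, lay in the middle of the 17 tumors. Beside these values, mad554 had the highest mean of the sympathoadrenal list (12.05), of the adrenal cortex list (5.69), of a mesothelium list (6.12) and of a list of spinal motor neuron genes (4.97), and the lowest of an endothelial list (6.13). No measured gene of the adrenal cortex, mesothelium and motor neuron lists averaged as much as the array median over the 17 tumors. The adrenal cortex list ran only from 5.25 to 5.69 and the motor neuron list from 4.38 to 4.97. The array median of mad554, 6.89, was also the highest. The adrenal cortex and motor neuron values therefore do not by themselves show RNA of these tissues. Whether they reflect such RNA in mad554 was not tested. The part of the lists in the low Hoxc values of mad554 was not tested.

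**Figure D2:**
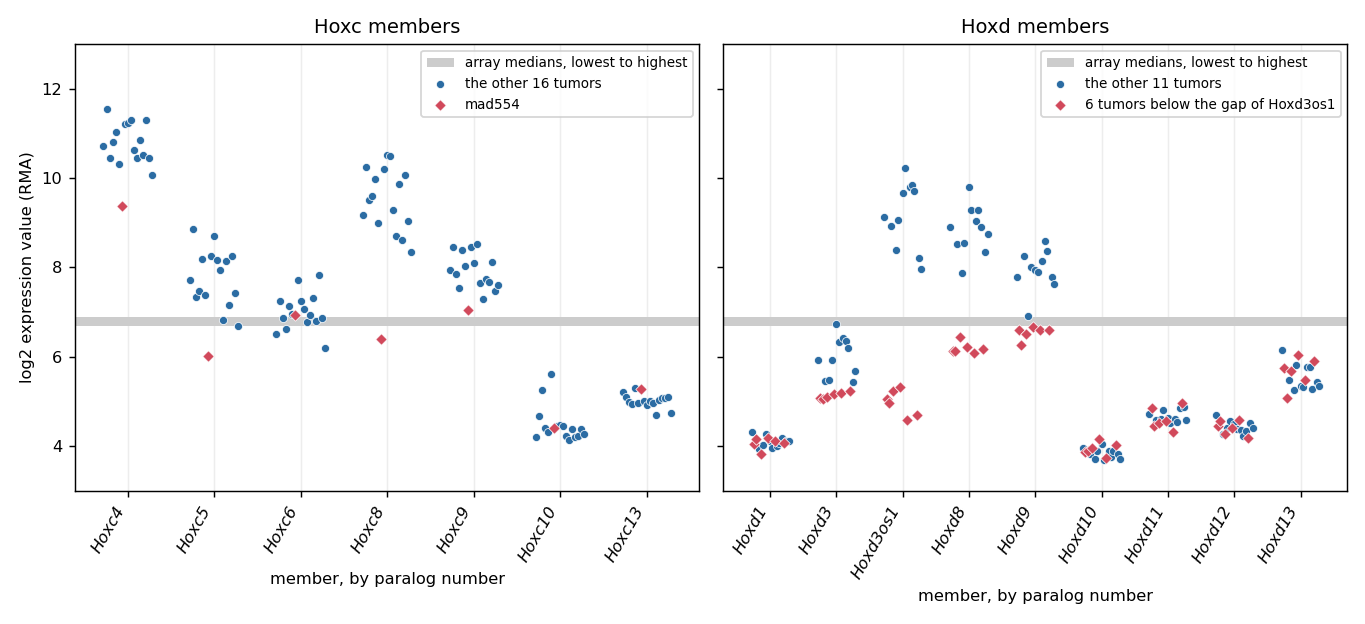
Log2 expression values (vertical axis) of the Hoxc members (left) and Hoxd members (right) in order of paralog number, with 1 point for each tumor and a grey band from the lowest to the highest array median, 6.69 to 6.89. Diamonds mark mad554 in the Hoxc panel and the 6 tumors lowest in Hoxd3os1 in the Hoxd panel, where they lie below the other 11 in Hoxd3, Hoxd3os1, Hoxd8 and Hoxd9 and among them in Hoxd1 and Hoxd10 to Hoxd13.

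Whether the members of a cluster varied together was tested with limma over all genes, against the member of the cluster with the largest SD among those that reached the array median. The effect is the log2 change for each SD of that gene. Against Hoxc8, 218 of 18192 genes passed an adjusted p of 0.05, or 1.2%, and 3 of 33 Hox members were among them, each higher where Hoxc8 was higher (63 genes were, 0.346%, and 155 were lower, 0.852%). Hoxc4 was higher by 0.51 (SE 0.04, adjusted p = 4.62e-06), Hoxc5 by 0.69 (SE 0.07, adjusted p = 5.83e-05) and Hoxc9 by 0.35 (SE 0.06, adjusted p = 0.00887). Hoxc6, which lies between them, had 0.20 (SE 0.08, adjusted p = 0.33), and Hoxc10 and Hoxc13 did not pass either. No member of the other clusters passed. Of the 5 relations examined within the cluster, Pearson's r with Hoxc8 was 0.946 for Hoxc4, 0.920 for Hoxc5, 0.812 for Hoxc9, 0.503 for Hoxc6 and 0.064 for Hoxc10. Spearman's rho was 0.929, 0.931, 0.799, 0.659 and 0.412 in the same order. The permutation p of r (two-sided, 100000 permutations, n = 17) was 1e-05 for Hoxc4 and for Hoxc5, the smallest they can give, and 3e-05 for Hoxc9, 0.0445 for Hoxc6 and 0.788 for Hoxc10. The permutation p of rho was 1e-05 for Hoxc4 and Hoxc5, 0.00017 for Hoxc9, 0.00529 for Hoxc6 and 0.101 for Hoxc10. Without mad554 and mad565, the tumors farthest from the median of Hoxc8, r was 0.894 for Hoxc4, 0.883 for Hoxc5, 0.767 for Hoxc9, 0.621 for Hoxc6 and -0.02 for Hoxc10.

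Other genes moved with Hoxc8 as well. The 5 genes with the smallest p were Fgf13, Hoxc4, Nfe2l3, Hoxc5 and Gsdma. Fgf13, which encodes an intracellular fibroblast growth factor homolog of neurons, had a lowest value of 4.89, in mad554, a median of 9.58 and a highest of 10.71, and was higher by 1.35 for each SD of Hoxc8 (SE 0.11, adjusted p = 2.42e-06). Nfe2l3, a leucine zipper transcription factor, had 6.93, again in mad554, 9.56 and 10.56, with an effect of 0.92 (SE 0.10, adjusted p = 5.83e-05). Gsdma, a gasdermin, ran the other way, with 4.35, 4.95 and 7.46 and its highest value in mad554 (effect -0.70, SE 0.08, adjusted p = 6.35e-05). How many genes passed depended on mad554. Without it 50 genes passed, of which 35 were among the 218. Since the SD of Hoxc8 was 0.68 without mad554 and 1.01 with it, the effects are set side by side for each log2 unit of Hoxc8. Without mad554, Hoxc4 had 0.57 (SE 0.07, adjusted p = 0.0012), against 0.51 in all tumors, and Hoxc5 had 0.84 (SE 0.10, adjusted p = 0.0012), against 0.68. Hoxc9 had 0.43 (SE 0.10), against 0.35, and no longer passed (adjusted p = 0.0634). Fgf13 had 1.17 (adjusted p = 0.00313), against 1.34, Nfe2l3 0.98 (adjusted p = 0.00562), against 0.91, and Gsdma -0.55 (adjusted p = 0.0389), against -0.69.

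The Hoxd cluster carried the largest differences between tumors of any Hox cluster. Hoxd3os1, a long noncoding RNA transcribed against the direction of the cluster from within the Hoxd3 gene, had a lowest value of 4.60, a median of 8.38 and a highest of 10.22. Its SD of 2.15 was larger than that of 99.91% of all genes. Its values left a wide gap: 6 tumors had 4.60 (mad559), 4.69 (mad563), 4.97 (mad550), 5.06 (mad549), 5.24 (mad552) and 5.32 (mad555), and the other 11 had 7.96 to 10.22. Hoxd8, a gene of the trunk, had a lowest value of 6.08, a median of 8.53 and a highest of 9.80. Its values left a gap of the same kind, between 6.45 and 7.87, and the same 6 tumors lay below it. Hoxd9, which marks the lower thoracic and lumbar levels, had 6.26, 7.78 and 8.59. Its largest gap, between 6.92 and 7.63, left the same 6 tumors and mad553 below. Hoxd3, a gene of the neck vertebrae, had 5.06, 5.49 and 6.74 and no such gap, but its 6 lowest tumors, at 5.06 to 5.24, were again the same.

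This order of tumors was rare on the arrays. Of all 18193 genes, 5 had these 6 tumors as their 6 lowest (0.0275%), and these were Hoxd9, Hoxd8, Hoxd3os1, Hoxd3 and the noncoding RNA Gm38462. Hoxd3os1 is among them by definition, since the 6 tumors were taken from its own values. In the gene table all 5 genes are neighbors in a single stretch of the Hoxd cluster on chromosome 2. Gm38462 spans Hoxd8 and runs into Hoxd3os1, whose name the table also gives as an older name of Gm38462. It had a lowest value of 3.53, a median of 4.58 and a highest of 5.13, below the array median in every tumor. Only Hoxd3os1, again by definition, and Hoxd8 had their largest gap at these 6 tumors (0.011% of genes). A largest gap of at least 0.5 with at least 3 tumors on each side was found in 162 genes (0.89%), of which 3 were Hox members, Hoxd3os1, Hoxd8 and Hoxd9. The gap was looked for after the values had been seen.

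Other probe sets of the region gave a mixed picture. The second probe set of Hoxd8 followed the first with r = 0.982 and ran from 4.91 to 6.20 in the same 6 tumors and from 7.59 to 9.48 in the other 11. A probe set shared by Hoxd4 and Hoxd3 also had these 6 as its lowest, at 4.60 to 5.0, below 5.06 to 5.75 in the others. Another probe set shared by Hoxd4 and Hoxd3 ran from 5.90 to 6.59 in the 6 and from 6.30 to 6.87 in the 11, which overlap. A second probe set of Hoxd3os1 stayed between 4.56 and 5.09 in all tumors, and its values in the 6 and the 11 overlapped. The gene models of Gm38462, Hoxd8, Hoxd3os1 and Hoxd3 overlap, and which exons their probes match was not analysed here.

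The pattern was not seen in the members on either side of this stretch. Hoxd10, the neighbor of Hoxd9, had a lowest value of 3.69, a median of 3.88 and a highest of 4.15. Hoxd11 lay between 4.33 and 4.97, Hoxd12 between 4.19 and 4.71 and Hoxd13, a gene of the digits and the genital region, between 5.09 and 6.15. Hoxd1, at the other end of the cluster, lay between 3.83 and 4.31. Hoxd1, Hoxd10, Hoxd11 and Hoxd12 were below the 25th percentile of every array. A probe set that hybridizes poorly also lies there, so these members cannot mark where the pattern ends. In the plot of levels by member, the tumors low in Hoxd3os1 are spread among the others in all of these genes.

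Against Hoxd3os1, limma called 4 of 18192 genes (0.022%), all of them in the stretch named above. Hoxd8 was higher by 1.34 on the log2 scale for each SD of Hoxd3os1 (SE 0.07, adjusted p = 4.73e-09), Hoxd9 by 0.72 (SE 0.07, adjusted p = 6.36e-05) and Hoxd3 by 0.49 (SE 0.07, adjusted p = 0.00288). The fourth gene was Gm38462 (0.39, SE 0.05, adjusted p = 0.00425), and the fifth smallest p, of Gm6556, had an adjusted value of 0.9999. So 3 of 33 Hox members passed, and the median absolute effect of all 33 members was 0.04, against 0.03 over all genes. None of the other clusters held a called member. The Hoxc members had effects of -0.27 (Hoxc8) to -0.03 (Hoxc13), of which none passed. Because the tumors fell on both sides of a gap, the relation was also given on each side of it. Among the 11 tumors above the gap, Pearson's r with Hoxd3os1 was 0.839 for Hoxd3, 0.732 for Hoxd8, 0.613 for Hoxd9 and 0.476 for Gm38462. Among the 6 below it, r was -0.491 for Hoxd3, 0.619 for Hoxd8, -0.007 for Hoxd9 and -0.274 for Gm38462. When limma was run on the 11 tumors alone, a choice made after the values had been seen, no gene passed (1259 genes and 7 members had an unadjusted p under 0.05). The 7 were Hoxd3, Hoxd8, Hoxd9, Hoxc4, Hoxc6, Hoxa11 and Hoxb9. For each SD in these 11, the effect was negative for Hoxc10 (-0.13). In the remaining Hoxc members it was positive, from 0.01 (Hoxc13) to 0.46 (Hoxc8), unlike the negative effects over all tumors. The SD of Hoxd3os1 was 0.75 in these 11 and 2.15 in all tumors, so the effects of Hoxd3, Hoxd8 and Hoxd9, too, are given for each log2 unit of Hoxd3os1. Hoxd3 had 0.50 (SE 0.10, limma adjusted p = 0.55) in the 11, against 0.23 (SE 0.03) in all tumors. Hoxd8 had 0.51 (SE 0.14, limma adjusted p = 0.56), against 0.62 (SE 0.03), and Hoxd9 had 0.36 (SE 0.14, limma adjusted p = 0.64), against 0.33 (SE 0.03). The 6 tumors low in Hoxd3os1 held 2 of the 3 tumors of high muscle list, mad549 and mad550. With the muscle list as a second covariate, 3 members passed, and without mad549, mad550 and mad553 only Hoxd8 and Hoxd9 did, with an adjusted p of 0.0542 for Hoxd3 (limma).

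**Figure D3:**
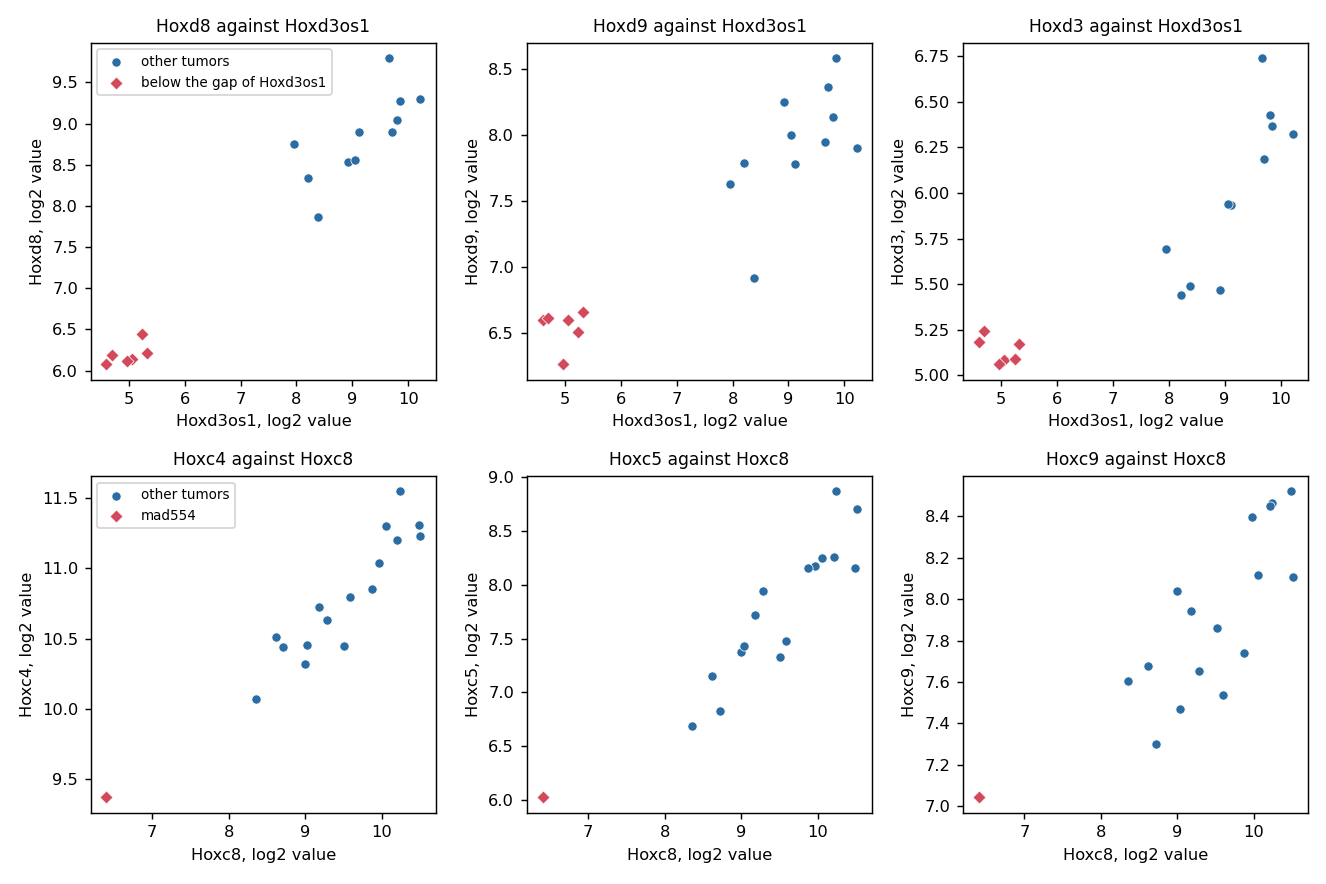
Log2 expression values of Hoxd8, Hoxd9 and Hoxd3 against Hoxd3os1 (upper row) and of Hoxc4, Hoxc5 and Hoxc9 against Hoxc8 (lower row), with 1 point for each tumor. In the upper row the 6 tumors below the gap of Hoxd3os1 (diamonds, 4.60 to 5.32) form a separate cloud from the other 11 (7.96 to 10.22), and in the lower row the points run along a line with mad554 (diamond) at its low end.

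Promoter sequences are shown for the stretch that varied together and for its neighbor Hoxd10, whose values were low in every tumor. Each holds 300 bases, most of them before a start site annotated in RefSeq (GRCm38.p6), and reads 5′ to 3′ in the direction of the gene. For Hoxd10 the window lies inside the gene model of the gene table, which begins farther upstream. Capitals mark matches, on either strand, to CACGTG, the core element bound by MYC family proteins, or CCAAT, a common promoter element that reads ATTGG on the other strand.
Hoxd10 promoter, chr2:74691641-74691940, plus strand: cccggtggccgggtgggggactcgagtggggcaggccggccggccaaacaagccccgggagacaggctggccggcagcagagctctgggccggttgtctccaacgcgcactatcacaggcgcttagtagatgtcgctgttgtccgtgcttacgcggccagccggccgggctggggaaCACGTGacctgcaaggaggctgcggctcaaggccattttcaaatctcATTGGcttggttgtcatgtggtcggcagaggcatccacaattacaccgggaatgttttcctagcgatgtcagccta
Hoxd9 promoter, chr2:74697513-74697812, plus strand: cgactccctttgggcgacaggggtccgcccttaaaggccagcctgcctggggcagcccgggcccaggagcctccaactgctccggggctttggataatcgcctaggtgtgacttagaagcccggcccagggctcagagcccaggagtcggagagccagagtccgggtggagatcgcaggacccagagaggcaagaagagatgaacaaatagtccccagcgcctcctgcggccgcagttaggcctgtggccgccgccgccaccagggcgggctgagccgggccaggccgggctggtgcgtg
Hoxd8 promoter, chr2:74704365-74704664, plus strand: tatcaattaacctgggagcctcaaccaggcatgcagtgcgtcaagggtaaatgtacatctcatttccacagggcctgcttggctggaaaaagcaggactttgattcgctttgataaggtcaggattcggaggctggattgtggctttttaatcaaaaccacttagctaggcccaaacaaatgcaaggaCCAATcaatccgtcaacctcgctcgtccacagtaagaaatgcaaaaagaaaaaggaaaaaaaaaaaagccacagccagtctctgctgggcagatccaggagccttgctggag
Hoxd3 promoter, chr2:74711743-74712042, plus strand: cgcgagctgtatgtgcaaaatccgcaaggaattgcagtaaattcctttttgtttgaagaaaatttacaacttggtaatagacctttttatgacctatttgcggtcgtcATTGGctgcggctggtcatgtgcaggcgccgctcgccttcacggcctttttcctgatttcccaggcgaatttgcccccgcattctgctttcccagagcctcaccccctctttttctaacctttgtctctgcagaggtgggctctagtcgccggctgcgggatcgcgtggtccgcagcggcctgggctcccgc
Hoxd3os1 promoter, chr2:74716081-74716380, minus strand: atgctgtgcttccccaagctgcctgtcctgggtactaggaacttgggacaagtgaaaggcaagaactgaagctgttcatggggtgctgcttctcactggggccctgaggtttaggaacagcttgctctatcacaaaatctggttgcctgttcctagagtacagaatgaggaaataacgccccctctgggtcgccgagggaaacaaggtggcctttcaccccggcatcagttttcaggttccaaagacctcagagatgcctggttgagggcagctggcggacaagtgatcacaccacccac
The palindrome CACGTG was present in the Hoxd10 promoter and absent from the other 4 windows shown, and it is found in 7.15% of all 32851 promoters in the table. CCAAT was present in the Hoxd10, Hoxd8 and Hoxd3 promoters and occurs in 37.4% of all promoters. The TATA element TATAAA (13.6% of all promoters), the PBX and HOX element TGATNNAT (8.85%) and a direct repeat element of retinoic acid receptors (0.00913%) had no match in these 5 windows. The promoter of Hoxd4, which lies within the Hoxd3 gene model and is not shown, held 1 CACGTG, 1 TATAAA and 2 CCAAT. The number of CG dinucleotides was 22 for Hoxd10, 20 for Hoxd9, 6 for Hoxd8, 20 for Hoxd3 and 5 for Hoxd3os1, with a median of 7 over all promoters. The table held 23 promoters of 21 genes of the Hox clusters, with 4 to 45 CG dinucleotides and a median of 14. Of these 23, 5 had CACGTG, 13 had CCAAT, 3 had TATAAA and 3 had TGATNNAT. The matches describe the letters of these windows and no binding.

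No gene passed against Hoxa7 (0.0% of 18192 genes by limma, 1787 with an unadjusted p under 0.05). Hoxa7 had the largest SD of the Hoxa members that reached the array median, but this SD, 0.19, was near the median SD of all genes. With so little difference between tumors, the fit cannot decide whether Hoxa members vary together. The members with an unadjusted p under 0.05 were Hoxd11, Hoxb13, Hoxa9 and Hoxb4, with effects of 0.08 to 0.15 and adjusted p-values of 0.36 to 0.45. By rank correlation 32 genes passed, none of them a Hox member. The 5 genes with the smallest p in limma were Mterf1a (effect -0.24), C230037L18Rik (-0.18), Aqp11 (0.23), BB283400 (0.19) and Lce1i (0.18), each with an adjusted p of 0.28. The Hoxb cluster had no member at or above the array median, so no such fit was made for it.

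**Figure D4:**
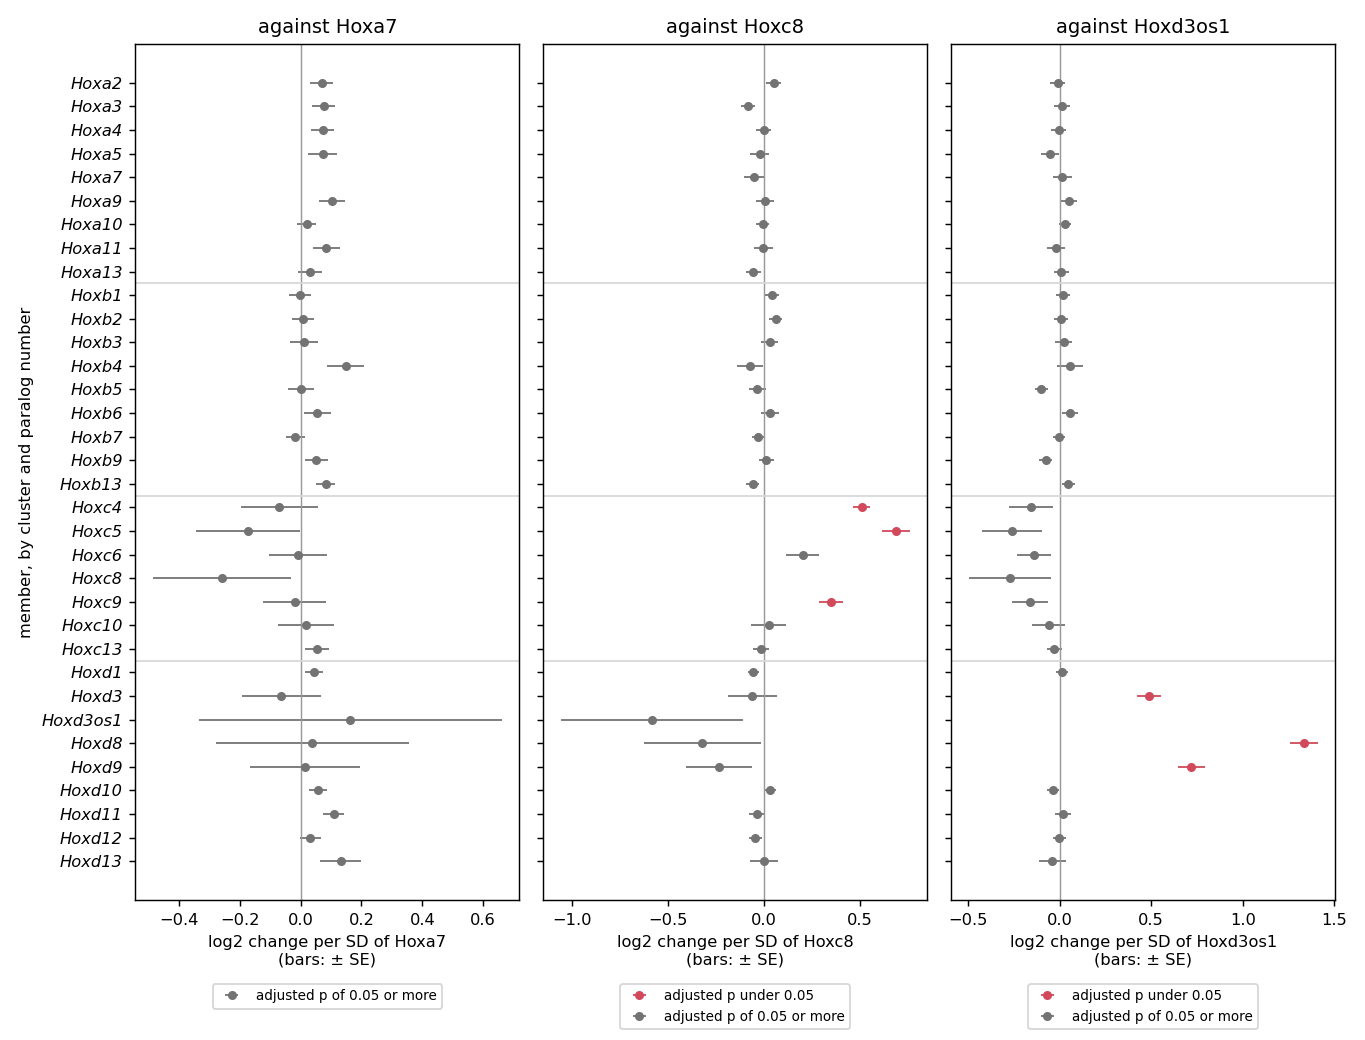
Log2 change of each member (rows) for each SD of Hoxa7 (left), Hoxc8 (middle) and Hoxd3os1 (right), with bars of 1 SE on either side and each panel on its own scale. Members with an adjusted p under 0.05 (red) are Hoxc4, Hoxc5 and Hoxc9 in the middle panel and Hoxd3, Hoxd8 and Hoxd9 in the right panel, and there are none in the left.

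Hox proteins bind DNA together with homeodomain cofactors of the TALE class, the Pbx, Meis and Pknox proteins. Of 8 measured cofactors, 7 reached the array median on average, where 57.6% of all genes did. Pbx3 had a lowest value of 9.62, a median of 11.38 and a highest of 12.39, and Meis1 had 10.98, 11.28 and 11.68. Meis3 (6.76 to 7.52) and Pbx4 (4.55 to 5.21) had the lowest means, and Pbx4 was the only cofactor below the array median in every tumor. Meis2 varied most, with an SD of 1.53. It was 5.21 in mad548 and 9.0 to 11.79 in the other 16. Against Hoxc8, 1 of 8 cofactors passed in limma. This was Pbx3, with an effect of 0.52 (SE 0.08, adjusted p = 0.00209), and its lowest value was that of mad554. Without mad554 its effect for each log2 unit of Hoxc8 was 0.44 (SE 0.12), against 0.52 in all tumors, and its adjusted p was 0.119. Against Hoxd3os1 none of 8 cofactors passed (1 had an unadjusted p under 0.05, as did 447 of 18192 genes).

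Among the 18 measured genes that set up or border the clusters, 2 had an SD of at least 0.5, where 6.79% of all genes did. These were Egr2 and Skap2, and the median SD of the 18 was 0.18. None of 6 measured regulators of the axial Hox pattern reached the array median on average. Egr2, the hindbrain factor Krox20, averaged 6.43 ± 0.59 (SD, n = 17) with 5.02 in mad563 and 7.97 in mad565, and Gdf11, a ligand that promotes trunk to tail identity, averaged 5.93 ± 0.20. The caudal gene Cdx4 (3.72 to 4.42) and Gbx2 (3.98 to 4.43) had the lowest means and lay below the 25th percentile of every array. Of 12 genes that flank the clusters, 7 reached the array median on average, close to the share of all genes, 57.6%. Cbx5, which encodes a heterochromatin protein and lies beside Hoxc, averaged 10.77 ± 0.16, and Mtx2, a mitochondrial import gene beside Hoxd1, averaged 10.73 ± 0.19 (SD, n = 17 each). Skap2, an adaptor gene beside Hoxa, had the largest SD, 0.53, with 8.15 in mad563 and 10.61 in mad562, and Lnpk, beyond Evx2 at the Hoxd13 end, ran from 7.51 to 8.37 (SD 0.23). The homeobox gene Evx1 (4.43 to 5.10) and Skap1 (4.87 to 5.39) had the lowest means. None of the 12 flanking genes and none of the 6 regulators passed against Hoxd3os1 or Hoxc8 in limma. At an unadjusted p under 0.05, 1 regulator (Cdx2) and no flanking gene moved with Hoxd3os1, and none of either moved with Hoxc8. Of all 18192 genes, 447 moved with Hoxd3os1 at that level and 2145 with Hoxc8. Of the noncoding RNAs listed, 2 were measured, Hoxa11os (4.05 to 4.39) and Hoxb5os (5.25 to 5.75), both below the array median in every tumor.

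The members were also set against the lists of other tissues. Against the skeletal muscle list, 90 of 18183 genes passed (0.495%), and 1 of 34 members did. Hoxc10 was higher by 0.36 for each SD of the list (SE 0.04, adjusted p = 9.48e-06). Its values were 5.62 in mad553, 5.26 in mad550 and 4.67 in mad549, the 3 tumors with high muscle genes, and 4.14 to 4.47 in the other 14. The call rested on these tumors, and without them the adjusted p of Hoxc10 was 0.98. The second probe set of Hoxa9 was also highest in mad553 (7.28) and mad550 (6.79), but it had 5.72 in mad549 and reached 6.73 in mad558, where the muscle list was at 6.18. Its relation to the list was not tested.

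**Figure D5:**
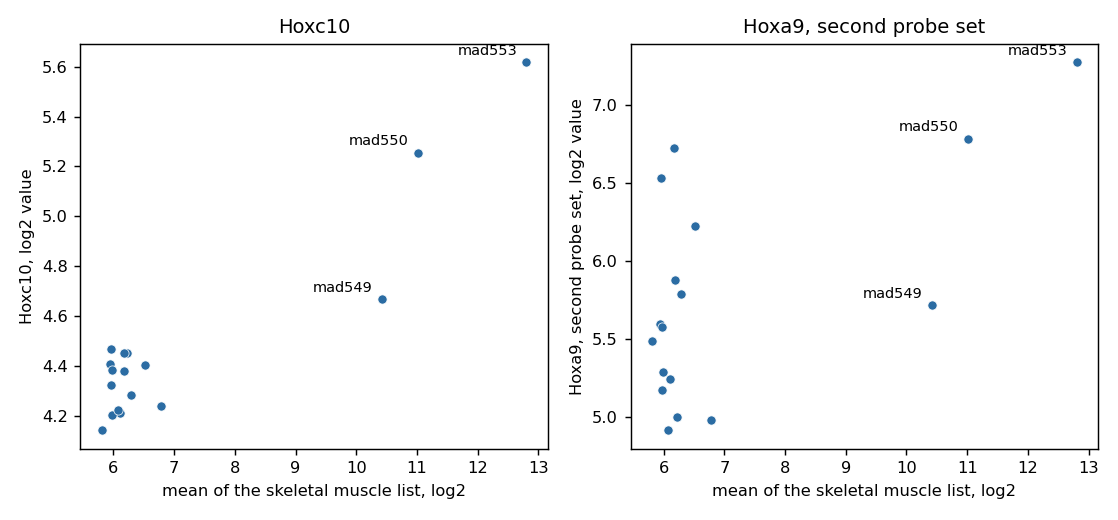
Log2 value of Hoxc10 (left) and of the second probe set of Hoxa9 (right) against the mean log2 value of the skeletal muscle list, with 1 point for each tumor. Hoxc10 is highest in the 3 labelled tumors with muscle list means of 10.42 to 12.80, while the Hoxa9 probe set is also high in some tumors with low muscle lists.

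Against a fibroblast list limma called 5 of 18185 genes (0.0275%), against the sympathoadrenal list 25 of 18181 (0.138%), against the kidney list 2 of 18185 (0.011%) and against the 3′ to 5′ signal difference 0 of 18193 (0.0%), and 0 of 34 members passed in each. At an unadjusted p under 0.05 there were 0 members for the fibroblast list, 8 for the sympathoadrenal list, 7 for the kidney list and 0 for the 3′ to 5′ difference. Among all genes tested the counts were 964, 1657, 2990 and 1257 in the same order. By rank correlation 1 member passed against the kidney list, Hoxa5, and none against the other lists or the 3′ to 5′ difference. No measured kidney gene averaged as much as the array median, and the list mean ran only from 4.89 to 5.24. A call against this list therefore does not by itself show a relation to kidney RNA, which was not tested. For the sympathoadrenal list the effects were -0.63 for Hoxc8, -0.51 for Hoxc5, -0.33 for Hoxc4 and -0.31 for Hoxc9, with adjusted p-values of 0.13 to 0.24, and 1.21 for Hoxd3os1 (adjusted p = 0.33), and none of these passed. The smallest p among the members was that of Hoxb13, with an effect of 0.12 (adjusted p = 0.0695), and it passed when every gene was given the mean of its probe sets, although Hoxb13 itself has only 1 (adjusted p = 0.0283). Its values were low, between 4.72 and 5.19, and below the 25th percentile of the array in 12 of the 17 tumors.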

How the data were processed

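RNA of 17 TH-MYCN tumors was measured on Affymetrix whole-genome mouse arrays after extraction with Trizol and a 2-cycle labelling. Per the labels, the authors deposited RMA values on the log2 scale. RMA removes background, normalizes the probes over the arrays by quantiles and summarises them per probe set, and the submitters' processing notes also name Partek version 6.4. The study's methods name MAS5 for the mouse arrays, whereas its results name RMA. The values ran from 3.28 to 15.59. Arrays give no read depth, and their number, 17, limits the precision. The study describes more tumors than the 17 analysed here.

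Of 45101 probe sets, 64 were controls, 34945 had 1 symbol in the platform annotation, 932 had several and 9160 were unnamed here. Names came from probe sets with 1 symbol. The 34 members had 50 such probe sets, and 12 members had more than 1. Levels and spread (SD of at least 0.5) are descriptions without a test, read beside the share of all genes. Relations were fitted with limma 3.58.1 (R 4.3.3, eBayes with trend, two-sided, Benjamini-Hochberg over all genes tested, threshold 0.05) on the log2 values, with the covariate scaled to an SD of 1 and its own genes left out. Promoters and gene order came from RefSeq tables (GRCm38.p6). Members, lists and tests were chosen with earlier results of these data known. Genes were named by rule: members at or above the array median, with an SD of at least 0.5, next above the last such paralog or called in a fit, of each further list the 2 highest, 2 lowest and 2 most variable, and the 5 genes of smallest p in a fit. Values beyond this rule, such as those of second probe sets, and the description of gaps were added after the values had been seen. Alternatives covered the choice of probe sets, the limits, the measure of spread, centring, rank correlation, low genes, left-out tumors and a second covariate. Python 3.11.15, NumPy 2.4.6, pandas 2.3.3 and Matplotlib 3.10.9 were used.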

Additional observations from a re-analysis of the deposited data

How the results depend on the processing

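No paired analysis was possible because the tumors form a single group with 1 array each. The count of members that reached the array median was 7 to 11 over the alternatives and over leaving out each tumor in turn, against 10, that of members below the 25th percentile of every array 8 to 10, against 9, and that of members with an SD of at least 0.5 6 to 7, against 7. Against Hoxc8 the count of called members was 2 to 3 when each tumor was left out in turn and 3 in every other alternative. Against Hoxd3os1 it was 3 when any 1 tumor was left out, 2 by rank correlation, without mad549, mad550 and mad553 and among genes at or above the array median (where Hoxd3 was not tested), and 0 in the 11 tumors above the gap, where fewer samples entered. Hoxd9 had an adjusted p of 0.0646 by rank correlation, and Hoxd3 had 0.0542 without the 3 muscle tumors. Against Hoxa7 it was 0 in every setting. Against the muscle list it was 1 when any 1 tumor was left out, and 0 by rank correlation, among genes at or above the array median (where Hoxc10 was not tested) and without mad549, mad550 and mad553. With the mean of all probe sets per gene, 1 member was called against the sympathoadrenal list (Hoxb13) and 1 against the kidney list (Hoxd13), and by rank correlation 1 against the kidney list (Hoxa5). The cause was not tested, and no measured kidney gene averaged as much as the array median. Leaving out 1 tumor gave 0 for these lists, for the fibroblast list and for the 3′ to 5′ difference. Of all genes called, leaving out 1 tumor gave 50 to 243 against Hoxc8, 4 against Hoxd3os1, 43 to 114 against the muscle list, 0 to 36 against the sympathoadrenal list, 1 to 8 against the fibroblast list and 0 to 6 against the kidney list. Against Hoxc8 132 genes passed without the 3 muscle tumors. Against the kidney list 120 passed by rank correlation and 172 with the mean of all probe sets, and against the sympathoadrenal list 0 passed by rank correlation or with centred arrays, compared with 2 and 25. The muscle covariate and the 11 tumors were chosen after seeing the data. No fit for Hoxb was run, since no Hoxb member qualified. Values near the low end of an array carry little information on differences.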
